A study of Mus musculus with 4 samples.

Results

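Open chromatin at 5 genes of Schwann cells and other peripheral glia, Sox10, Mbp, Erbb3, Cdh19 and S100b, was examined in ATAC-Seq peak lists of mouse heart nuclei. The members were the 5 named genes as annotated by GENCODE on mm10, out of 21755 protein-coding genes, and the rule that lists them uses no measured value. Hearts came from male Cdh5-Cre/NuTRAP mice on a C57BL/6 background, 8 to 12 weeks old. Every nucleus of both groups carries the NuTRAP reporter allele and the Cre transgene, which the Cdh5 promoter drives in endothelial cells, so that cells of endothelial descent are tagged with GFP. Sorting gave GFP+ (endothelial) nuclei and GFP- (non-endothelial) nuclei, with 2 libraries of each and no treatment of either. GFP- nuclei are therefore a mixture of cells such as cardiomyocytes, fibroblasts and mural cells, with any glia or neurons that lay within the heart. The glial share of that mixture is not known here, nor is the division of blood cells between the groups.

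Schwann cells descend from the neural crest, wrap or ensheath peripheral axons and accompany the autonomic nerves of the heart. Sox10 is the transcription factor that specifies and maintains this lineage. Erbb3 is the receptor through which axonal neuregulin, acting with Erbb2, keeps Schwann cells alive and drives their growth. Mbp encodes myelin basic protein, which compacts myelin, and its upstream promoter makes the Golli isoforms, which are also found in cells of the immune system. Cdh19 is a cadherin of the Schwann cell lineage, and S100b is a calcium-binding protein widely used to mark glia. ATAC-Seq reads mark DNA into which the Tn5 transposase could insert, so a peak shows accessibility and not transcription.

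Each population has a single peak list, which the authors called from both of its replicates together, with 78912 peaks for GFP- and 65008 for GFP+ nuclei. No value below therefore has a replicate error, and no test of a difference was possible. Peaks were compared by their area, the caller's signal summed over the peak, as a percentile rank from 0 to 100 within their own list. A start peak overlapped any annotated transcript start of a gene widened by 250 bp on each side, the highest-ranked one was taken, and a gene without one is given rank 0 in the plots. The populations differed at most of their own markers. Cdh5 itself ranked 17.96 in the GFP- and 85.3 in the GFP+ list. Pecam1, Erg and Emcn had a start peak in the GFP+ list only. The fibroblast markers Tcf21, Dcn and Dpt had one in the GFP- list only. Among the 9 endothelial markers, Tek went the other way, with rank 81.1 in GFP- and 54.1 in GFP+ nuclei. The lists were not fully distinct at markers, since 6 of 9 endothelial markers had a GFP- start peak. All 6 cardiomyocyte markers had a GFP+ start peak of rank 86.0 or above. The paper concludes that cardiac endothelial cells themselves hold open chromatin at cardiomyocyte genes. The source of these peaks was not tested here.

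The data showed accessible starts for 2 of the 5 members, Mbp and Erbb3, in both lists, and none at any annotated start of Sox10, Cdh19 or S100b in either list. Over all protein-coding genes, 61.8% had a start peak in the GFP- list, 59.8% in the GFP+ list, 58.8% in both and 37.3% in neither. No member had a start peak in the GFP- list only, the class that held 2.95% of all genes, or in the GFP+ list only, which held 0.915%. Both start peaks that were present ranked lower in the GFP+ list, as did 71.1% of the genes with a start peak in both lists. Both did so by more than 40 points, a drop shared by 1.36% of the 12802 genes with a start peak in both lists. These sizes depended on the processing. By area per bp the difference was -25.3 for Erbb3 and -35.9 for Mbp. With 1000 bp on each side of the start it was -10.1 for Erbb3. In mixed nuclei, fewer nuclei of a type and less accessibility per nucleus cannot be told apart.

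**Figure D1:**
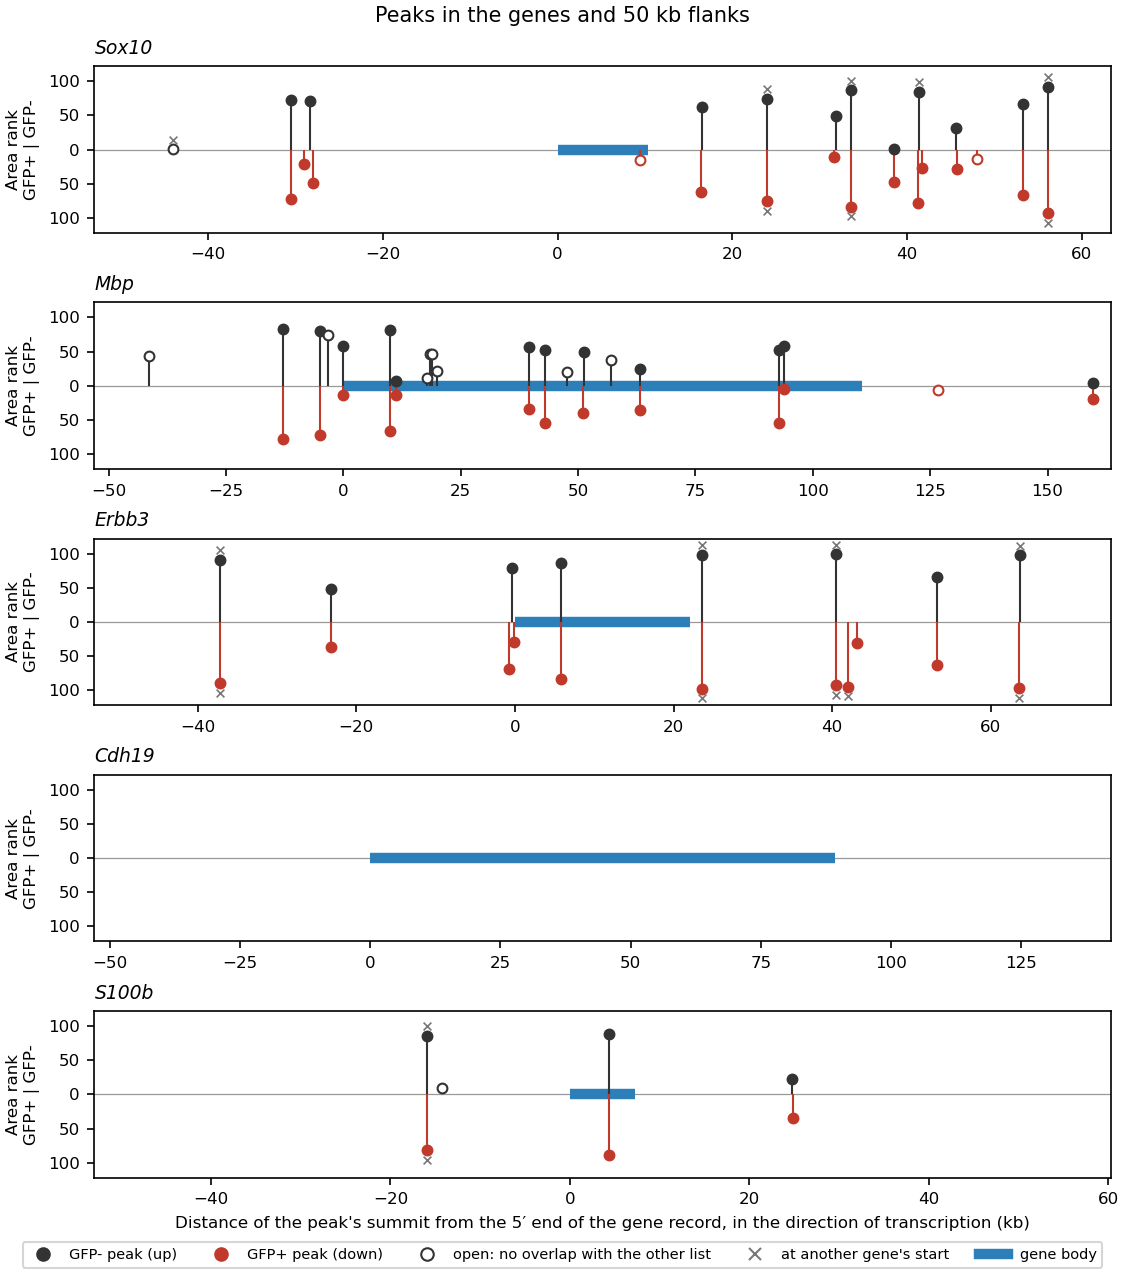
Peaks in each member and its 50 kb flanks, by distance of the summit from the 5′ end of the gene record in the direction of transcription (kb, horizontal) and area rank in their own list (vertical, GFP- upward in black and GFP+ downward in red). Filled points overlap a peak of the other list and open points do not, crosses mark peaks at another gene's start, and the blue bar is the gene body: Mbp holds 8 of the 10 open GFP- points, and the Cdh19 panel is empty.

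Sox10 (chr15:79154908-79165240, minus strand) has 4 annotated transcript starts, and none was covered in either list. The nearest GFP- peak lay 15459 bp from a start and the nearest GFP+ peak 8567 bp. The latter was the single peak of either list within the gene, a GFP+ peak of rank 15.6 at chr15:79155661-79155907, 9.44 kb into the gene in untranslated sequence of the last exon. It overlapped no GFP- peak.

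The window of Sox10, the gene with its 50 kb flanks, nevertheless held 12 GFP- and 15 GFP+ peaks, of which 11 and 13 overlapped a peak of the other list. Most of them belong to other genes by position. The 9 GFP- peaks of the downstream flank lay in or beside Micall1, Polr2f and the non-coding 1700088E04Rik, and ranked as high as 92.3 at a Micall1 start, where the GFP+ list had 93.0. In the upstream flank, inside the non-coding gene Gm10863, a peak 30.5 kb before the Sox10 start ranked 73.2 in the GFP- and 72.5 in the GFP+ list, and one 28.3 kb before it ranked 71.2 against 48.5. The remaining GFP- peak upstream, 44.0 kb away at a Gm10863 start, ranked 0.281 and had no GFP+ partner. The 2 larger upstream peaks were thus present in both lists, one at nearly equal rank and one lower in GFP+. The 200 bp around the summit of the larger one, at chr15:79195649-79195848 (GRCm38.p6, plus strand), are shown because it is the highest-ranked peak of the GFP- list in this window that lies at no annotated start.

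Sox10 upstream peak: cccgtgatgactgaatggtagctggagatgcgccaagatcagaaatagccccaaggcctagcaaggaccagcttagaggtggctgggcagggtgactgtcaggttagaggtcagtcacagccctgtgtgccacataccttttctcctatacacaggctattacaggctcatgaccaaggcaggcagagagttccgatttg

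Erbb3 (chr10:128567523-128589652, minus strand) has 1 annotated start. A GFP- peak of 1339 bp with an area of 2057 and rank 78.4 covered it (chr10:128589454-128590792). In the GFP+ list the same stretch held a pair of smaller peaks, one over the start with an area of 411 and rank 29.1 (chr10:128589341-128589765) and one just upstream with an area of 1252 and rank 68.3 (chr10:128589925-128590698). The rank difference at the start, GFP+ minus GFP-, was -49.3. It depended on how the start was drawn: with 1000 bp on each side the upstream GFP+ peak counted and the difference was -10.1. The rank was thus lower in GFP+ by either measure, but its size rested on where the caller split the signal. Each measure counted a single GFP+ peak of the pair, so the signal over the whole stretch was not compared.

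The strongest peak within Erbb3 was intronic, 5.79 kb into the gene, and the lists barely differed there, with rank 86.8 in GFP- and 83.5 in GFP+ nuclei. All 8 GFP- and all 11 GFP+ peaks of the Erbb3 window overlapped a peak of the other list, and all 8 GFP- peaks ranked higher than their highest GFP+ partner. The largest ones lay at starts of the neighbours Esyt1, Zc3h10 with Rpl41, Pa2g4 and Rps26, with GFP- ranks of 90.7 to 99.3. Sequences of the intronic summit (chr10:128583759-128583958) and of the GFP- start peak's summit, 321 bp before the start (chr10:128589873-128590072), are given on the plus strand. They are shown because they hold the summits of the strongest peak within the gene and of the GFP- start peak. The start sequence lies outside the GFP+ start peak of rank 29.1 and partly within the upstream GFP+ peak of rank 68.3.

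Erbb3 intron: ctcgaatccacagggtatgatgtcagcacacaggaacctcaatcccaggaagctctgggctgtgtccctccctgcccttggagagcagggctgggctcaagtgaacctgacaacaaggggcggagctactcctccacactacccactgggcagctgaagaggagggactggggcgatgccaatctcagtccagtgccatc
Erbb3 start: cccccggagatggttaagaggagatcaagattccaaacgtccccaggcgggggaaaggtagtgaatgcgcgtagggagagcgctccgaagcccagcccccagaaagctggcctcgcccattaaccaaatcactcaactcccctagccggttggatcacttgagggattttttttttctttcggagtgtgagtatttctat

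Mbp (chr18:82475146-82585637, plus strand) has 12 annotated starts for 16 transcripts, in separate groups. The 4 starts at the 5′ end, those of the long Golli transcripts, were covered by a GFP- peak with an area of 955 and rank 58.4 (chr18:82474780-82475432). The GFP+ peak there had an area of 286 and rank 14.3 (chr18:82474782-82475301), a difference of -44.1. The 7 starts between 82554470 and 82554580, from which the classic myelin isoforms are made, were covered in neither list. Their nearest peak, of rank 52.2 in GFP- and 55.2 in GFP+ nuclei, lay 13012 bp away or farther in either list. The last start, at 82563262, was uncovered too. The accessible start of Mbp was thus the Golli start and not the myelin start, in both populations.

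The window of Mbp held 20 GFP- peaks, of which 12 overlapped a GFP+ peak (60.0%, Wilson 95% interval 38.7 to 78.1), and 13 GFP+ peaks, of which 12 overlapped a GFP- peak. No peak lay at another gene's start. The highest-ranked of the 8 GFP- peaks without a partner lay 3.20 kb before the gene (rank 73.6), followed by neighbouring intronic peaks 18.5 and 18.9 kb into the gene (ranks 47.2 and 46.3). Others lay 41.5 kb upstream (rank 43.1) and 56.9 kb inside (rank 37.8), and 3 more inside the gene ranked 21.3, 20.03 and 11.1. Among the shared peaks, the pair 93.9 kb into the gene had the widest gap, with rank 57.6 in GFP- and 5.34 in GFP+ nuclei, while the neighbouring pair 92.7 kb into the gene ranked 52.2 and 55.2. Leaving out the start, 11 of 19 GFP- peaks were shared (57.9%, 36.3 to 76.9), an interval that includes the 65.9% of GFP- peaks at no annotated start within 50 kb of any protein-coding gene. The interval treats these few peaks as independent, though some were neighbours, so it cannot decide whether the overlap at Mbp differed.

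S100b (chr10:76253853-76261159, plus strand) had no start peak, but a single intronic peak 4.33 kb into the gene that was among the largest of the members. Its area was 3798 and its rank 88.8 in the GFP- list, against 3472 and 88.3 in the GFP+ list. The gene's only start lay 3885 bp from it in the GFP- and 3877 bp in the GFP+ list. Its window held 4 GFP- and 3 GFP+ peaks, with 3 of each shared, one of them at the Prmt2 start (ranks 85.9 and 82.0). A GFP- peak 14.3 kb upstream without a partner ranked 9.93. The summit of the intronic peak (chr10:76258079-76258278, plus strand) is shown because it is the strongest signal of S100b and holds a SOX word, in capitals.

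S100b intron: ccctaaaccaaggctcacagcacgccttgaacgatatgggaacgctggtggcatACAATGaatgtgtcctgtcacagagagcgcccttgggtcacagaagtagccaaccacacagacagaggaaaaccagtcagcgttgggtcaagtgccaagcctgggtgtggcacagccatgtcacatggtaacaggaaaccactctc

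Cdh19 (chr1:110888326-110977584, minus strand) had no peak of either list in the gene or its 50 kb flanks, as did 13.8% of protein-coding genes (14.4% had no GFP- peak there and 15.6% no GFP+ peak). The peak nearest to a Cdh19 start lay 886457 bp away in the GFP- and 886458 bp in the GFP+ list, and only 1.98% and 1.85% of genes were farther from a peak. No signal at this gene was detectable at the depth of these lists, which does not show that the gene is closed in every heart cell.

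Across the 5 windows, 34 of 44 GFP- peaks overlapped a GFP+ peak (77.3%, 63.0 to 87.2), beside 71.8% for all GFP- peaks within 50 kb of a protein-coding gene. In the other direction, 39 of 42 GFP+ peaks overlapped a GFP- peak (92.9%, 81.0 to 97.5), beside 87.3%. Of the 34 shared GFP- peaks, 25 ranked higher than their highest GFP+ partner and 22 lay within 10 points of it, with a median difference of -3.19. Leaving out all peaks at annotated starts, 23 GFP- peaks were shared and 13 lay within 10 points, and of the 39800 such peaks in the whole list 55.8% did so, with a median of -2.51. Of the 31 GFP+ peaks at no annotated start, 28 were shared (90.3%), beside 84.0% of such GFP+ peaks over all genes. Outside Mbp, the windows held 2 GFP- peaks without a partner, and both ranked below 10.

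**Figure D2:**
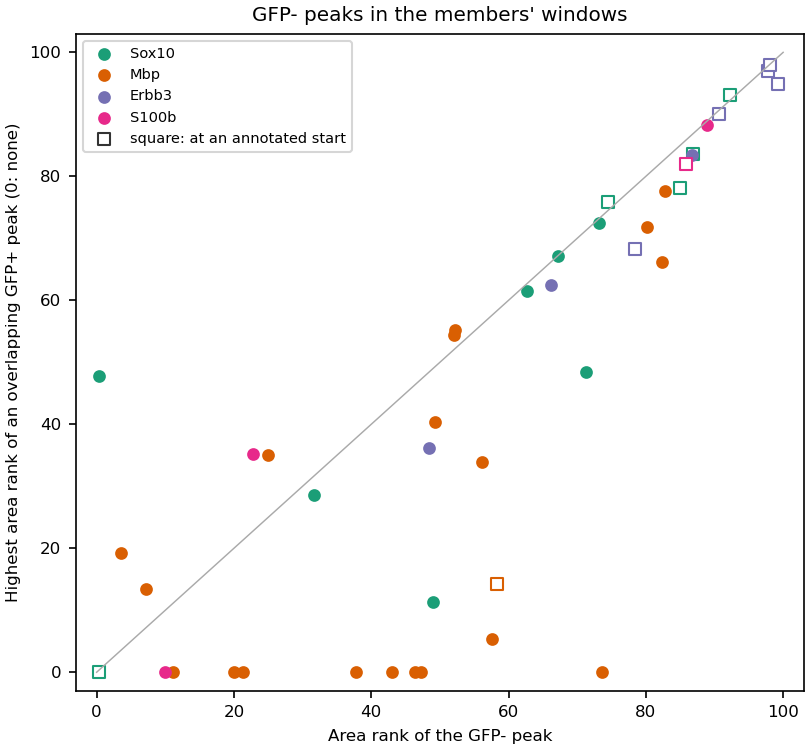
Area rank of each GFP- peak in the members' windows (horizontal) against the highest rank of an overlapping GFP+ peak (vertical, 0 where none overlaps), with squares for peaks at an annotated start and the line of equal rank. Points of S100b, Erbb3 and Sox10 above rank 60 lie near the line, apart from the Sox10 peak at 71.2 and the Erbb3 start peak, while 8 Mbp points lie at 0.

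The composition of the starts was compared next. Within 250 bp of the start, the Golli starts of Mbp held 39 to 40 CpG dinucleotides and Erbb3 held 30, where the median was 37 for genes with a start peak in both lists and 5 for genes with none. Cdh19 held 5 and S100b 4, and of all gene starts within 2 CpGs of these values 10.8% and 7.76% had a GFP- peak. The myelin starts of Mbp held 19 to 22 CpGs, and Sox10 held 18 at all but its most upstream start. Of gene starts within 2 CpGs of 22, 73.4% had a GFP- peak, and 59.2% of those within 2 CpGs of 18. The empty myelin starts of Mbp and 3 of the 4 empty starts of Sox10 thus had a CpG count at which most starts were accessible, whereas the most upstream Sox10 start, with 7 CpGs, and the starts of Cdh19 and S100b had fewer.

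Words of the factors that bind glial genes were looked for, reading both strands, in windows of 200 bp centred on the summits. The SOX word ACAATG was present at 7 of the 44 GFP- peaks of the 5 windows (15.9%) and at 8.11% of all GFP- peaks. The other SOX word, ACAAAG, was present at 1 (2.27%), against 13.5%. The TEAD word GGAATG was present at 4 (13.6% of all), the AP-1 word TGANTCA at 6 (9.99% of all) and the EGR word GCGTGGGCG at 0 (0.214% of all). The sequences of the Sox10 and Erbb3 peaks printed above held none of the 5 words. These are matches of letters in few windows, and the SOX words differed from the whole list in opposite directions.

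The wider list of 50 Schwann cell and glial genes, which includes the 5 members, had a start peak for 27 genes in the GFP- list (54.0%) and for 24 in the GFP+ list (48.0%), beside 61.8% and 59.8% of all genes. All 24 were present in both lists, 3 genes were open in the GFP- list only (6.00%, against 2.95% of all genes), none in the GFP+ list only, and 23 had no start peak (46.0%, against 37.3%). Of the 24 in both lists, 7 ranked more than 20 points lower in GFP+, against 4.27% of all such genes, and 2 more than 20 points higher, against 1.14%. In 1 gene of each of these groups the lists' peaks lay at different starts of the gene and did not overlap, so that its ranks do not compare a single site.

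**Figure D3:**
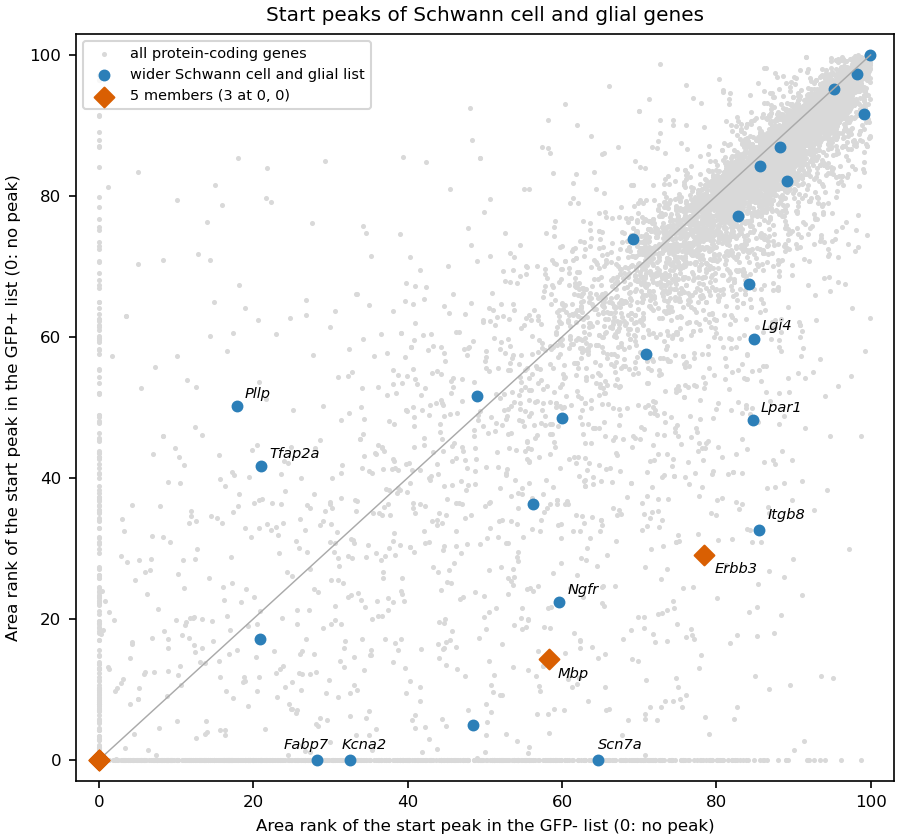
Area rank of the start peak in the GFP- list (horizontal) and in the GFP+ list (vertical), with 0 for no peak, for all protein-coding genes (grey), the wider glial list (blue) and the 5 members (orange diamonds). Mbp and Erbb3 lie well below the line of equal rank, and Sox10, Cdh19 and S100b lie together at 0.

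Among the lineage factors, start peaks were present in both lists for 4 of 8, and in neither for Sox10, Foxd3, Pax3 and Sox2. Tfap2a, a factor of the neural crest, ranked 20.96 in GFP- and 41.6 in GFP+ nuclei, but with starts of protein-coding transcripts alone it had a start peak in the GFP- list only. Zfp536, a zinc finger protein, ranked 69.2 and 73.8. Egr2, the factor that switches on myelination and an immediate-early gene in many cell types, ranked 98.3 and 97.2.

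Among 18 myelin proteins and enzymes, 8 had a start peak in both lists and 10 in neither, including Mag, a myelin adhesion protein, Pmp2 and the connexin Gjb1. Pllp, a proteolipid of myelin and epithelia, ranked 17.8 in GFP- and 50.2 in GFP+ nuclei, but at different starts of the gene, and with the outermost start alone it had a peak in the GFP- list only. Mal ranked 49.0 and 51.6. Only Mbp in this group ranked more than 20 points lower in GFP+ nuclei.

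Receptors and adhesion molecules held most of the wider-list genes that ranked more than 20 points lower in GFP+ nuclei. Of the 8 receptors and signals, 5 had a start peak in both lists, and 4 of these ranked more than 20 points lower in GFP+. Besides Erbb3 these were Ngfr, the p75 neurotrophin receptor (59.6 against 22.3), Lpar1, a lysophosphatidic acid receptor (84.7 against 48.2), and Lgi4, a secreted ligand required for peripheral myelination (84.8 against 59.7). Of the 7 adhesion genes, 4 had a start peak in both lists, and Itgb8, an integrin that activates TGF-beta, ranked 85.5 in GFP- and 32.7 in GFP+ nuclei. Cdh19, L1cam and Ptprz1 had none.

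The 3 genes with a start peak in the GFP- list only were among the 9 channels, filaments and small proteins of glia and nerve on the list. The sodium channel Scn7a ranked 64.7, the potassium channel Kcna2 32.5 and the fatty acid binding protein Fabp7 28.2. S100b, Kcna1 and Col28a1 of this group had no start peak. Cmtm5, at ranks 99.98 and 99.99, shares its peak with a start of Myh6, the cardiac myosin gene, so that these genes cannot be told apart, and with its outermost start alone Cmtm5 had a peak in the GFP- list only.

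Several other marker lists also had more start peaks in the GFP- list. Of all genes, 61.8% had one in the GFP- list, 59.8% in the GFP+ list and 2.95% in the GFP- list only. Of the 6 fibroblast markers, 5 had a start peak in the GFP- and 2 in the GFP+ list, with GFP- ranks of up to 96.5, and of the 5 mural markers 5 and 3. Of the 11 markers of neurons, 4 and 2 had one, with Th, Dbh and Chat among those at none, and of the 6 oligodendrocyte markers 2 and 1. Of the 5 macrophage markers, 1 had a start peak in both lists (Cd68, ranks 31.8 and 16.8). The 7 melanocyte markers, whose cells also derive from Sox10-expressing neural crest, had 4 and 4. Of the 8 Schwann cell and glial markers, 2 had a start peak in both lists, among them Ngfr, and 6 had none in either, among them Foxd3, Gfra3, Kcna1, Gpr37l1 and L1cam. The part of fibroblasts, mural cells or neurons in the ranks of Mbp, Erbb3 and the wider list was not tested.

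**Figure D4:**
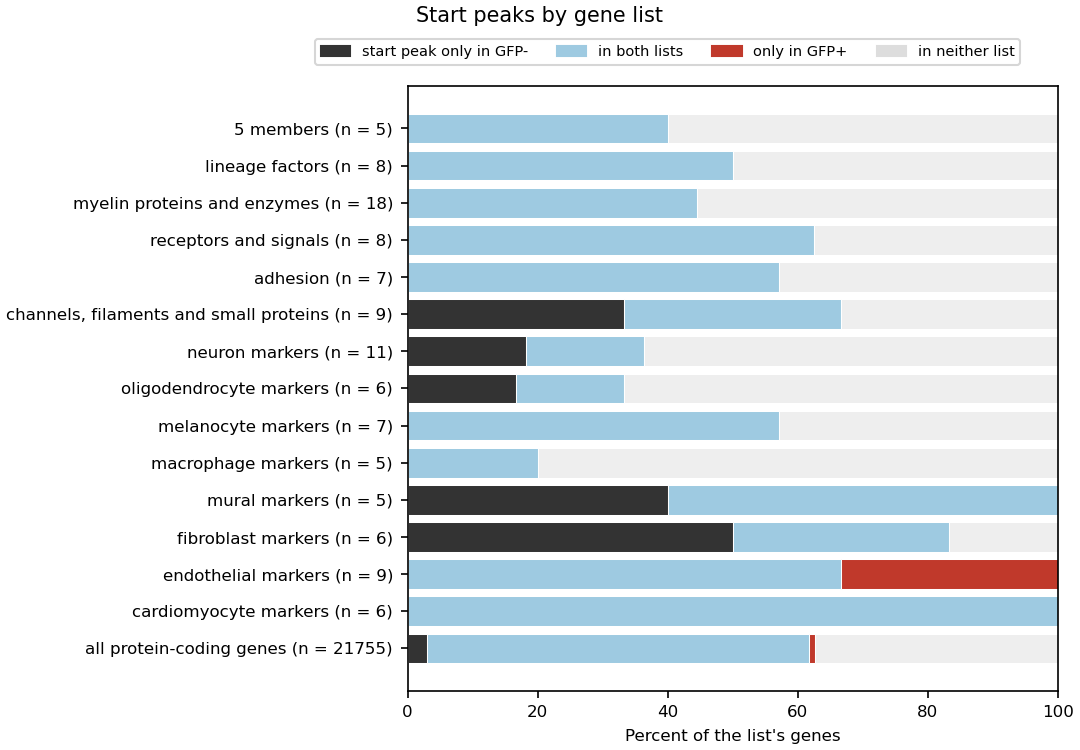
Percent of genes of each list with a start peak only in the GFP- list (black), in both lists (light blue), only in the GFP+ list (red) and in neither (grey), with the number of genes beside each name. The members and most glial groups have no black share, as 2 of 5 members and 4 of 8 lineage factors are in both lists, while 3 of 6 fibroblast markers are black and 3 of 9 endothelial markers red.

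Of the 8 genes of neuregulins and their receptors, Erbb3 included, 7 had a start peak in each list (87.5%, beside 61.8% and 59.8% of all genes). The ligand genes Nrg1, Nrg2 and Nrg4 ranked 86.1, 65.1 and 83.2 in GFP- and 71.9, 33.3 and 82.4 in GFP+ nuclei, and Nrg3 had no start peak. The Nrg2 peaks lay at different starts of the gene, so that its ranks do not compare a single site, and with the outermost start alone Nrg2 had a peak in the GFP- list only. Erbb2, the co-receptor of Erbb3, ranked 84.5 and 84.8, and Erbb4, the neuregulin receptor of cardiomyocytes, 93.5 and 92.8. The peaks of Nrg4 and Erbb4 also covered starts of Tmem266 and Gm16076, and the GFP- peak of Nrg1 one of Gm26578. Egfr had the widest gap of the family, with rank 88.4 in GFP- and 20.5 in GFP+ nuclei. The difference at Erbb3 thus lay between that of Egfr and those of Erbb2 and Erbb4, which were both under 1 point in size.

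Of the SoxE genes, the family of Sox10, Sox9 had a start peak in the GFP- list only, with rank 89.1, and Sox8 in both lists, with ranks of 79.4 and 40.6. Sox10 was the member of the family without a start peak. The GFP- peaks of Sox8 and Sox9 also covered starts of the non-coding genes 2810468N07Rik and BC006965.

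The genes with start ranks most like those of Mbp, by the distance between the pairs of ranks over the 2 lists, included Nup62cl and Pih1h3b, both at 57.6 and 13.3. Those most like Erbb3 were Thbs2 (80.2 and 31.2), S100a4 (77.6 and 32.0) and Adcy7 (81.2 and 27.6). None of these was on the wider glial list.

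For the question whether nerve glia show in the non-endothelial list, the members Sox10, Cdh19 and S100b gave no start peak there. The members Erbb3 and Mbp gave one, Mbp at its Golli starts and not at its myelin starts. Foxd3 gave none and Egr2 gave one of rank 98.3, both named after their values were seen. Of the 50 wider-list genes, 27 had a GFP- start peak (54.0%), beside 61.8% of all genes. The GFP- ranks of Erbb3, Golli Mbp and Ngfr were higher than the GFP+ ranks, and no value here ties these peaks to glial nuclei. In the wider list, Scn7a, Kcna2 and Fabp7 had a start peak in the GFP- list only (6.00%, against 2.95% of all genes). Of its 24 genes in both lists, 7 ranked more than 20 points lower in GFP+, against 4.27% of all such genes. A further 2 ranked more than 20 points higher, against 1.14%. Which cells gave these peaks was not tested. At the depth of the lists, the starts of Sox10, Cdh19 and S100b held no peak, while those of Erbb3 and Golli Mbp did in both populations. Whether glial nuclei were present was not tested.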

How the data were processed

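ATAC-Seq was performed on GFP- and GFP+ heart nuclei, 2 libraries each, from 100 to 50000 nuclei per reaction. The authors trimmed reads with fastp, aligned them to mm10 with Bowtie2 (2.3.5.1 in the submitters' processing notes, which also list SAMtools 1.19), removed low-quality and duplicate reads, downsampled, and called peaks with Genrich from both replicates together. The deposited area (column of signal) is not scaled between lists, so ranks within a list were used. The deposited −log10 p-value refers to the summit and served as an alternative rank. The deposited score is limited to 1000 and was not used. The authors' lists hold no area under 200, and depth per library is unknown from them, so intervals (Wilson, 95%) cover counting error only.

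Genes came from GENCODE M21 and sequence from GRCm38.p6, with the Y chromosome and mitochondrial genome left out. Peaks were placed by summit and counted as shared from an overlap of 1 bp upward. Named genes were the members, wider-list genes open in a single list, the 5 with the largest rank difference in each direction, the neuregulin and SoxE genes, the 3 nearest in start ranks and genes whose starts lay under a window peak. Egr2, Lpar1, Lgi4 and the wider-list genes and markers named for a missing start peak were chosen after their values were seen. Some genes that these rules name are not reported here. Members and lists were chosen with earlier results of these data known. The scripts, in Python 3.11.15 with pandas 2.3.3 and pysam 0.24.0, were tested on simulated peaks. Alternatives changed starts, window, threshold, list length, rank measure, overlap and flanks.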

Additional observations from a re-analysis of the deposited data

How the results depend on the processing

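Of 72 recomputed counts and pooled shares, 62 stayed within 1.5 times the count or within the Wilson interval of the share given in the report. With only the 5′ end of the gene record as the start, 5 genes of the wider list (among them Cmtm5, Fabp7, Pllp and Scn7a) and 2 of the neuregulin and SoxE list (Nrg2 and Sox9) had a start peak in the GFP- list only, and with starts of protein-coding transcripts 5 wider-list genes did (among them Fabp7, Kcna2, Scn7a and Tfap2a). Above the first quartile of area, 1 member kept a GFP+ start peak and 1, Mbp, was left in the GFP- list only, as were 6 wider-list genes and 2 of the neuregulin and SoxE list (Egfr and Sox9), while 2 wider-list genes (Pllp and Tfap2a) were left in the GFP+ list only. With an overlap of 50% of both peaks, 69.0% of the GFP+ peaks in the members' windows were shared, beside 74.1% over all genes. Without flanks, 62.5% of the GFP- peaks were shared, beside 70.6% over all genes, and with flanks of 10 kb 68.2% beside 73.0%. Under these 3 settings, the shares just given lay below those of all genes, while in the report they lay above. The members' shares in the other direction stayed above. They were 65.9% of GFP- peaks beside 62.5% with the 50% overlap. For GFP+ peaks they were 91.7% beside 86.2% without flanks and 94.1% beside 87.7% with flanks of 10 kb. The rank difference of Erbb3 lay between -65.7 and -10.1, and that of Mbp kept its sign, under every alternative tried. Pllp and Tfap2a, higher in GFP+ in the report, turned to a start peak in the GFP- list only with the outermost start alone and with protein-coding starts respectively, as did Cmtm5 with the former. No paired analysis was possible because each list was called from both replicates together and no test was made, and for the same reason no replicate could be left out.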
